A study of Mus musculus with 10 samples.

Results

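Penk and Clec3b were followed through the stromal vascular fraction (SVF) of inguinal white adipose tissue (iWAT), by stromal subtype, by other cell classes, by barcode set and by genotype. These 2 of the 14623 genes in the count table were chosen on their low levels in the stromal cells of the Bbs8 KO mouse, so that difference is described below and no test was applied to it. Penk encodes proenkephalin, a secreted precursor that prohormone convertases and carboxypeptidase E cut at pairs of basic residues to release enkephalins, the ligands of delta and mu opioid receptors. In fat, Met-enkephalin made by innate lymphoid cells is known for its part in beiging. Clec3b encodes tetranectin, a secreted C-type lectin that binds plasminogen and is found in the matrix of connective tissue. The stroma of mouse iWAT holds Dpp4- and Pi16-bearing interstitial progenitors (P1), Icam1-bearing committed preadipocytes (P2) and F3-bearing stromal regulators (P3), all adipocyte progenitor cells (APCs).

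The study compared a Bbs8 KO mouse (Bbs8-/-, lacking the BBSome subunit BBS8 in all cells and not in the stroma alone) with a Bbs8 WT mouse (Bbs8+/+), both lean and aged 7 weeks. The series text names 1 mouse per genotype, and the labels list 5 samples for each. Single cells were profiled by Seq-Well S3, which pairs cells with barcoded beads in microwells and counts transcripts by their unique molecular identifiers (UMIs). With 1 mouse per genotype no test between genotypes was possible, and every interval below is a 95% interval (exact Poisson for levels, exact conditional for ratios, exact Clopper-Pearson for shares) that covers counting error only.

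The table held 8985 Bbs8 KO cells with 3144195 UMIs and 1929 Bbs8 WT cells with 715989 UMIs, at a median of 251 and 278 UMIs per cell. Columns carried 10 set codes, 5 per genotype, which matched no single labelled sample and served as a technical range only. Of the barcodes, 36 occurred in more than 1 set, and 4 of them in more than 3 sets. Ttc8, the gene of BBS8, had 0 UMIs in Bbs8 KO cells and 5 UMIs in 3 Bbs8 WT cells of 1 set, none of them stromal, so the knockout could not be checked in the stroma. A cell was called stromal when at least 5% of its UMIs came from 8 pan-stromal genes (the receptor gene Pdgfra, the collagen genes Col1a1, Col1a2 and Col3a1, and Dcn, Lum, Gsn and Serpinf1) and these outnumbered every other marker list. It was called P1-like, P2-like or P3-like by the subtype list with the most UMIs, at least 2. This gave 1278 stromal cells for the Bbs8 KO and 659 for the Bbs8 WT mouse. All 8 pan-stromal genes were detected in both genotypes, as were all 11 P1 markers and all 7 P3 markers, while the P2 marker Dlk1 was at 0 UMIs in Bbs8 WT stromal cells. The call is a range and not a natural class: 317 Bbs8 KO and 102 Bbs8 WT stromal cells had 5% to 6% pan-stromal UMIs, and 490 and 105 cells lay just below the limit at 4% to 5%. Among cells with a subtype, 113 of 862 in Bbs8 KO and 61 of 523 in Bbs8 WT were decided by a lead of 1 UMI.

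The enkephalin repeats of Penk are shown because they are the peptides that its mRNA stands for. In the GENCODE annotation (GRCm38), Penk lies on the minus strand of chromosome 4 (chr4:4133531-4138819) and Clec3b on the plus strand of chromosome 9 (chr9:123150946-123157432). The Penk transcript used here has 2 exons and a reading frame of 268 codons, and a search of that frame for enkephalin codons after a pair of basic codons found 7 units, 6 with Met-enkephalin and 1 with Leu-enkephalin, all in exon 2. Capitals mark the peptide codons and lower case the flanking Lys and Arg codons that processing enzymes cut.
Met-enkephalin unit 1: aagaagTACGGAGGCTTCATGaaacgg
Met-enkephalin unit 2: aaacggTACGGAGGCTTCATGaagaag
Met-enkephalin unit 3: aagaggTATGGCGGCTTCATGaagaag
Met-enkephalin unit 4, extended to 8 residues: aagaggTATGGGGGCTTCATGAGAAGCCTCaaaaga
Met-enkephalin unit 5: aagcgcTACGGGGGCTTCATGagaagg
Leu-enkephalin unit 6: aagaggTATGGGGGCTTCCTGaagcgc
Met-enkephalin unit 7, extended to 7 residues: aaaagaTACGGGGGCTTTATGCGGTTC
The first and the last unit lie at chr4:4134328-4134354 and chr4:4133842-4133868, and the Leu-enkephalin unit at chr4:4133935-4133961. The 6 Met-enkephalin units encode the same first residues with 5 different codon runs, which differ from each other at up to 3 of 15 bases. The antisense RNA gene A830012C17Rik overlaps Penk on the other strand and had no row in the count table, and no other annotated gene overlaps either locus. Because UMIs were counted from the poly(A) end of transcripts, none of the values below tells the peptide units apart, and levels are compared between cells and not between the genes.

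Penk was low in the stromal cells of the Bbs8 KO mouse. In the 5 Bbs8 KO sets its level, in UMIs of the gene per 1000000 UMIs of the cells (CPM), was 303 CPM in KO5_p2, 328 in KO5_p3, 310 in KO6_p1, 152 in KO6_p2 and 257 in KO6_p3. In Bbs8 WT it was 646 in WT3_p1, 673 in WT3_p2, 1160 in WT3_p3, 487 in WT4_p2 and 770 in WT4_p3. No set of one genotype fell within the range of the other, WT3_p3 stood highest, and KO6_p2 lowest. Summed over cells, Penk had 152 UMIs in Bbs8 KO, 268 CPM (227 to 315), and 188 in Bbs8 WT, 672 CPM (579 to 775). The log2 ratio of Bbs8 KO over Bbs8 WT, with 5 CPM added to each level, was -1.31, and the interval of the plain ratio was -1.64 to -1.01.

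Clec3b, the tetranectin gene, was low in the same cells and varied less among sets. Its level in Bbs8 KO was 862 CPM in KO5_p2, 844 in KO5_p3, 715 in KO6_p1, 771 in KO6_p2 and 656 in KO6_p3. In Bbs8 WT it was 1291 in WT3_p1, 1970 in WT3_p2, 1616 in WT3_p3, 1879 in WT4_p2 and 1660 in WT4_p3. Again the sets did not overlap between genotypes, and WT3_p1 was the lowest of Bbs8 WT. The sums were 434 UMIs, 766 CPM (696 to 842), in Bbs8 KO and 484 UMIs, 1729 CPM (1578 to 1890), in Bbs8 WT. Their log2 ratio was -1.17 (-1.36 to -0.98).

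These differences are what the genes were chosen for. Over the 2784 genes with at least 50 UMIs in stromal cells, the median log2 ratio was 0.04, 2.51% were at or below -1, and 2.98% had all Bbs8 KO sets below all Bbs8 WT sets. Penk stood at rank 26 and Clec3b at rank 38 from the low end. Nothing about the choice of these genes can be read from those ranks. The plot of levels by barcode set shows the gap between genotypes for both genes.

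**Figure D1:**
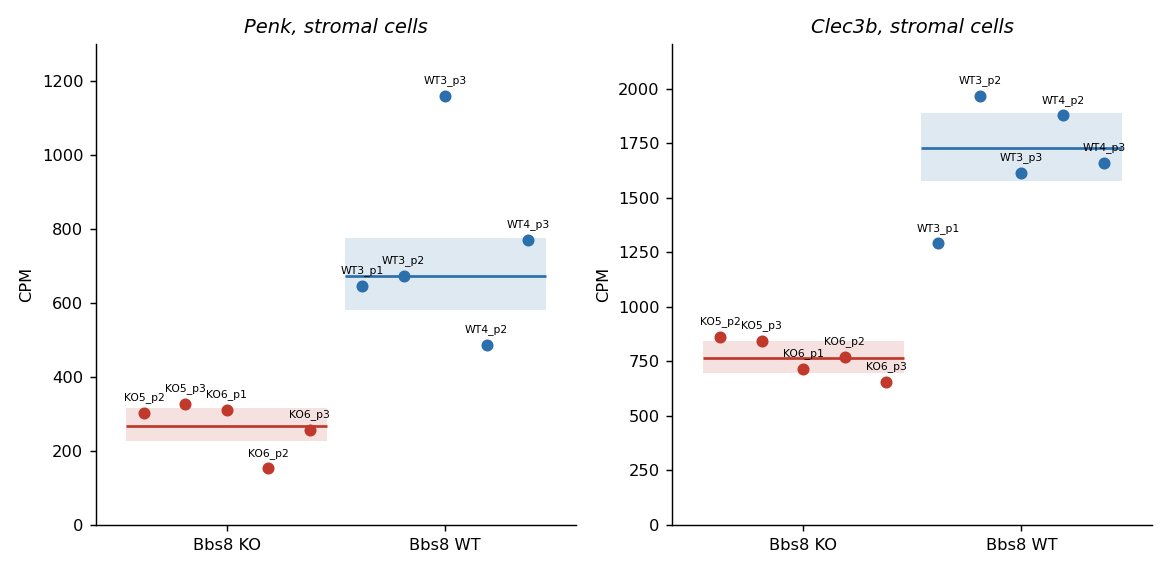
Level of Penk (left) and Clec3b (right) in stromal cells, in CPM, for each of 5 barcode sets per genotype (points, labelled with the set code). Lines are the level over all stromal cells of the genotype and bands its 95% exact Poisson interval. Bbs8 KO sets run from 152 to 328 for Penk and from 656 to 862 for Clec3b, below all Bbs8 WT sets.

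The set codes fall under a pair of numbers per genotype, whose meaning no label gave. Penk was 315 CPM (243 to 400) in the KO5 sets and 241 (193 to 298) in the KO6 sets, against 790 (632 to 976) in WT3 and 596 (486 to 724) in WT4. Clec3b was 854 (733 to 988) and 715 (630 to 808) against 1626 (1396 to 1884) and 1794 (1599 to 2007). For both genes the numbers of 1 genotype overlapped in their intervals and those of different genotypes did not. These are the stromal cells on which the genes were chosen, so the gap is no further support. The share of all genes with such a gap was not computed.

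A smaller share of Bbs8 KO stromal cells held a UMI of each gene. Penk was detected in 103 of 1278 cells (8.06%, 6.63 to 9.69) in Bbs8 KO and in 120 of 659 (18.2%, 15.3 to 21.4) in Bbs8 WT. After every cell was thinned to 200 UMIs, which left out 311 Bbs8 KO and 92 Bbs8 WT cells, the shares were 4.55% (3.33 to 6.06) and 10.8% (8.33 to 13.6). Clec3b was detected in 277 cells of each genotype, 21.7% (19.4 to 24.0) of Bbs8 KO and 42.0% (38.2 to 45.9) of Bbs8 WT stromal cells, and in 13.3% (11.3 to 15.6) and 27.7% (24.0 to 31.6) after thinning. Cells that held the genes held similar numbers of UMIs, 1.48 and 1.57 for Penk and 1.57 and 1.75 for Clec3b in Bbs8 KO and Bbs8 WT. In B cells, which serve as the background class, Penk was found in 3 of 1202 Bbs8 KO cells (0.250%) and 3 of 63 Bbs8 WT cells (4.76%, 0.993 to 13.3), at median depths of 288 and 281 UMIs. Without KO6_p2 the Bbs8 KO share was 0.106%, and without WT3_p1 the Bbs8 WT share was 1.75%. Clec3b was found in 19 Bbs8 KO B cells (1.58%) and 6 Bbs8 WT B cells (9.52%, 3.58 to 19.6), 5 of them from WT4_p2. Stromal shares lay above these in both genotypes, although the few Bbs8 WT B cells left a wide interval.

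The genes were highest in different subtypes. Penk was lowest in P1-like cells, where Clec3b had its highest level. The leading genes of each class over the other stromal cells included 6 of its own markers for P1-like, 6 for P2-like and 5 for P3-like cells, and none of another class. Because the cells were called on these markers, that outcome was built in and is no check of the calls. Cells of these subtypes had 343 to 552 UMIs at the median. They are part of the stromal cells on which the genes were chosen. Differences between genotypes within a subtype are therefore a description and no further support.

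Among P1-like cells, 212 from the Bbs8 KO and 63 from the Bbs8 WT mouse, Penk had 5 UMIs in each genotype. For Bbs8 KO this was 42.1 CPM (13.7 to 98.2) and for Bbs8 WT 160 (51.9 to 373). By set, Bbs8 KO had 0 to 2 UMIs, while all 5 Bbs8 WT UMIs came from WT4_p2, in 2 cells, and the other 4 sets had 0. Both levels overlapped those of classes outside the stroma. In Bbs8 KO these were 38.8 (15.6 to 79.9) in endothelial cells and 6.64 (1.37 to 19.4) in B cells, which were lower by point value. In Bbs8 WT B cells the level was 121 (25.0 to 355), and 45.0 (1.14 to 251) without WT3_p1. By these overlaps, Penk in P1-like cells was not distinguishable from the background. The log2 interval for Bbs8 KO over Bbs8 WT was -4.04 to 0.19, and a difference between genotypes was not detectable at this depth.

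P2-like cells held most of the stromal Penk, 65.8% of its UMIs for Bbs8 KO and 80.9% for Bbs8 WT. In Bbs8 KO the level was 364 CPM in KO5_p2, 477 in KO5_p3, 324 in KO6_p1, 184 in KO6_p2 and 279 in KO6_p3. In Bbs8 WT it was 791 in WT3_p1, 655 in WT3_p2, 1231 in WT3_p3, 640 in WT4_p2 and 842 in WT4_p3. The genotypes did not overlap in this subtype either. Over 602 Bbs8 KO and 427 Bbs8 WT cells the levels were 321 (261 to 390) and 781 (662 to 916), a log2 ratio of -1.27 (-1.66 to -0.91), while 3.17% of the 1579 genes measured in P2-like cells were at or below -1 and 2.53% had separate sets in this direction. Penk was found in 10.5% (8.14 to 13.2) of Bbs8 KO and 22.5% (18.6 to 26.7) of Bbs8 WT P2-like cells, and in 4.50% (2.87 to 6.68) and 11.8% (8.77 to 15.5) after thinning.

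P3-like cells, 48 from the Bbs8 KO and 33 from the Bbs8 WT mouse, had the highest Penk level of any class by its point value. It was 720 CPM (456 to 1080) from 23 UMIs in Bbs8 KO and 861 (471 to 1445) from 14 UMIs in Bbs8 WT. The Bbs8 WT sets spread from 138 to 3802 and enclosed the Bbs8 KO range of 483 to 1178. The log2 ratio was -0.26, with an interval of -1.28 to 0.81, and it was -0.998 without WT4_p2 and 0.25 without WT3_p3. Whether the ratio differs from that of P2-like cells was not tested. Penk was detected in 29.2% (16.95 to 44.1) of Bbs8 KO and 24.2% (11.1 to 42.3) of Bbs8 WT P3-like cells, and in 15.9% (6.64 to 30.1) and 18.2% (6.98 to 35.5) after thinning.

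Within a genotype, Penk was higher in P2-like than in P1-like cells. No fold is given over a P1-like level that was not distinguishable from the background. The log2 interval of P2-like over P1-like cells began at 1.66 in Bbs8 KO and at 1.04 in Bbs8 WT, where the P1-like UMIs came from the single set WT4_p2. P3-like cells exceeded P2-like cells in Bbs8 KO, with a log2 ratio of P3-like over P2-like cells of 1.15 (0.44 to 1.83), whereas in Bbs8 WT they did not differ beyond counting error, with a log2 ratio of 0.14 (-0.76 to 0.93). Ordered by level, the Bbs8 KO classes ran P3-like, P2-like, stromal cells without a subtype, P1-like and then endothelial cells, T cells, macrophages and B cells, and from P1-like cells downwards each neighbour overlapped the next. Cells without a subtype overlapped P2-like cells and not P1-like cells. In Bbs8 WT the first 4 places were the same, and each overlapped the next.

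Clec3b had its highest level in P1-like cells, which held 41.0% (Bbs8 KO) and 19.6% (Bbs8 WT) of its stromal UMIs, while the more numerous P2-like cells held 38.0% and 53.9%. In Bbs8 KO it was 1659 CPM in KO5_p2, 1587 in KO5_p3, 1571 in KO6_p1, 1553 in KO6_p2 and 1181 in KO6_p3. In Bbs8 WT it was 2539 in WT3_p1, 2783 in WT3_p2, 3509 in WT3_p3, 2720 in WT4_p2 and 4178 in WT4_p3. No Bbs8 KO set reached a Bbs8 WT set, although WT3_p3 rested on 3 UMIs and WT3_p1 on 7. The sums were 1498 (1286 to 1735) and 3037 (2457 to 3713), a log2 ratio of -1.02 (-1.39 to -0.64). Under TMM scaling, which moved all genes of P1-like cells by 0.90, the Clec3b ratio was -0.12. Of the 305 genes with enough UMIs in P1-like cells, 2.95% were at or below -1 and 0.984% had separate sets in this direction. Clec3b was detected in 45.3% (38.5 to 52.2) of Bbs8 KO and 69.8% (57.0 to 80.8) of Bbs8 WT P1-like cells, and in 22.7% (16.9 to 29.4) and 50.8% (37.5 to 64.1) after thinning.

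In P2-like cells Clec3b was lower than in P1-like cells of the same genotype, and again lower in Bbs8 KO. Bbs8 KO sets were at 596 CPM in KO5_p2, 587 in KO5_p3, 494 in KO6_p1, 598 in KO6_p2 and 378 in KO6_p3. Bbs8 WT sets were at 905 in WT3_p1, 1348 in WT3_p2, 1185 in WT3_p3, 1565 in WT4_p2 and 1324 in WT4_p3. The sets of the genotypes lay apart, as they did in this direction for 2.53% of the 1579 genes measured in P2-like cells. The sums were 529 (451 to 616) and 1342 (1184 to 1515), a log2 ratio of -1.33 (-1.63 to -1.06). The shares of cells with a UMI were 19.6% (16.5 to 23.0) and 39.3% (34.7 to 44.2), and 9.59% (7.18 to 12.5) and 21.6% (17.5 to 26.1) after thinning.

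In P3-like cells Clec3b was 782 CPM (506 to 1155) from 25 UMIs in Bbs8 KO and 2338 (1654 to 3209) from 38 UMIs in Bbs8 WT. Their log2 ratio was -1.57 (-2.37 to -0.81). The sets overlapped, at 322 to 1571 and 425 to 3802, and WT4_p2 held 23 of the 38 Bbs8 WT UMIs. In cells thinned to 100 UMIs the ratio was -0.32. Of the 82 genes measured in these cells, 6.1% were at or below -1. Clec3b was found in 29.2% (16.95 to 44.1) of Bbs8 KO and 48.5% (30.8 to 66.5) of Bbs8 WT P3-like cells, and in 22.7% (11.5 to 37.8) and 33.3% (18.0 to 51.8) after thinning, so that the intervals of the shares overlapped.

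Clec3b in P1-like cells was 2.83 times its level in P2-like cells of Bbs8 KO and 2.26 times in Bbs8 WT, with log2 intervals for P2-like over P1-like of -1.82 to -1.19 and -1.52 to -0.82. P3-like cells lay between the others in both genotypes. They did not differ beyond counting error from P2-like cells in Bbs8 KO (log2 0.56, -0.11 to 1.18) or from P1-like cells in Bbs8 WT (-0.38, -0.96 to 0.18). Penk made up 2.73% (0.893 to 6.26) of the UMIs of both genes together in Bbs8 KO P1-like cells and 37.7% (31.9 to 43.9) in P2-like cells, against 5.0% (1.64 to 11.3) and 36.8% (32.1 to 41.7) in Bbs8 WT. Between P1-like and P2-like cells the genes thus stood in opposite order in both mice. P3-like cells exceeded P2-like cells by point value for both genes, so the full orders were not opposite. The plot of levels by class shows these levels.

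**Figure D2:**
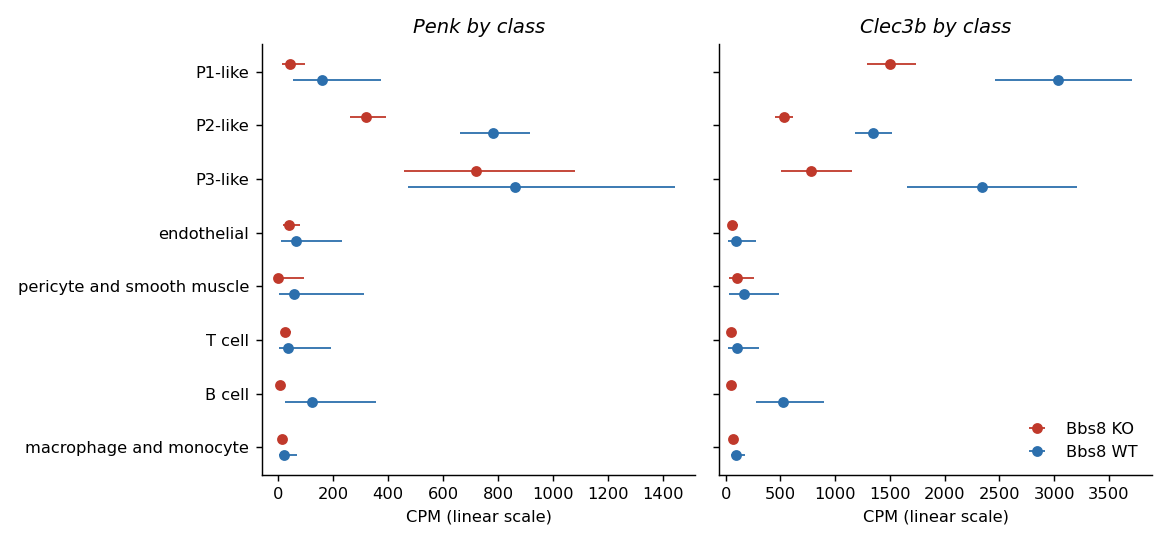
Level of Penk (left) and Clec3b (right) in CPM by cell class, for Bbs8 KO (red) and Bbs8 WT (blue). Points are summed levels and bars 95% exact Poisson intervals. Penk is near the level of the other classes in P1-like cells and reaches 720 and 861 in P3-like cells, while Clec3b peaks in P1-like cells at 1498 and 3037.

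The subtype mix differed between the libraries: P1-like cells were 16.6% of the Bbs8 KO and 9.56% of the Bbs8 WT stromal cells, P2-like cells 47.1% and 64.8%, and P3-like cells 3.76% and 5.01%. When the Bbs8 KO subtype levels were weighted by the Bbs8 WT mix, Penk came to 301 CPM against 672 in Bbs8 WT (log2 -1.15), and Clec3b to 666 against 1729 (log2 -1.37). The difference in Penk was thus smaller, and that in Clec3b larger, at an equal mix.

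A further 416 Bbs8 KO and 136 Bbs8 WT stromal cells had no subtype call, 165 and 37 of them without a UMI of any subtype list. They were shallower, with 209 and 242 UMIs at the median, and immune genes such as Lcp1, Ctss and C1qb led the genes that set them apart from other stromal cells. They form a remainder and not a named class, and the values are given for it as such. Penk was 231 CPM (148 to 344) in those of Bbs8 KO and 449 (262 to 719) in those of Bbs8 WT, with a log2 ratio of -0.94 (-1.92 to 0.03). Clec3b was 635 (491 to 808) and 2378 (1913 to 2924), with a log2 ratio of -1.90 (-2.38 to -1.43), which was -1.25 in cells thinned to 100 UMIs.

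**Figure D3:**
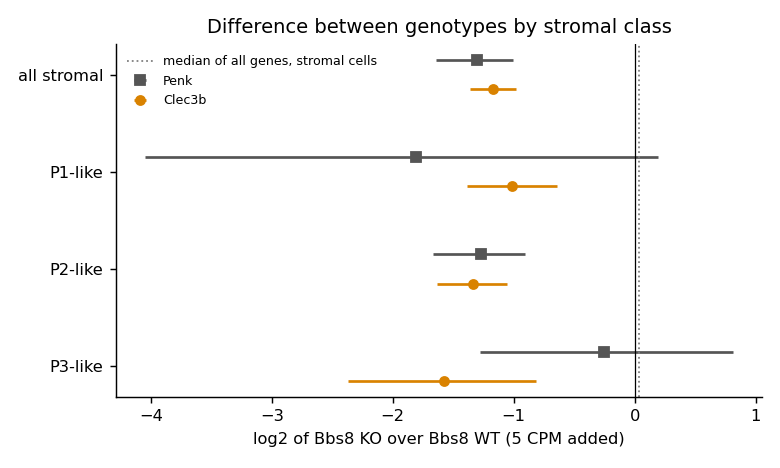
Log2 ratio of Bbs8 KO over Bbs8 WT (5 CPM added) for Penk (squares) and Clec3b (circles) in all stromal cells and in each subtype. Bars give the 95% exact conditional interval of that ratio without the addition, and the dotted line is the median of 2784 genes in stromal cells, 0.04. The Penk intervals of P1-like and P3-like cells span 0, and all 4 Clec3b intervals lie below it.

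Outside the stroma both genes were lower than in stromal cells of the same genotype. In Bbs8 KO, Penk was 38.8 CPM in endothelial cells, 25.3 in T cells, 12.8 in macrophages and monocytes and 6.64 in B cells, and 0 of 39900 UMIs in pericytes and smooth muscle, where 3 UMIs would be 75.2 CPM and the exact Poisson upper bound was 92.5. In Bbs8 WT its 10 UMIs in these classes and epithelial cells together gave 41.8 CPM, against 17.2 from 26 UMIs in Bbs8 KO. Clec3b in the same classes gave 138 CPM from 33 UMIs in Bbs8 WT and 56.8 from 86 UMIs in Bbs8 KO. Bbs8 WT B cells stood out with 526 (280 to 899), from 13 UMIs of which 1 cell held 7. Of these, 12 came from WT4_p2, and without that set the level was 98.5 (2.49 to 549) from 1 UMI. The share of Penk in the UMIs of both genes was 23.2% outside the stroma in Bbs8 KO (15.8 to 32.1) and 23.3% in Bbs8 WT (11.8 to 38.6), close to the stromal 25.9% and 28.0%. Unassigned cells held 25.5% (Bbs8 KO) and 21.7% (Bbs8 WT) of all Penk UMIs and 29.7% and 24.3% of all Clec3b UMIs. Penk was 58.0 CPM (44.4 to 74.6) and 280 (211 to 365) in them, and Clec3b 209 (183 to 239) and 846 (722 to 985). The source of the UMIs outside the stromal class was not tested.

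Markers of immune cells moved with the genotype inside the stromal class. UMIs of the T cell, B cell, macrophage and dendritic lists together made up 2254 CPM of Bbs8 KO stromal cells (2109 to 2330 by set) and 1118 of Bbs8 WT (422 to 1536), and 47.6% and 24.0% of the cells held at least 1. Detected in Bbs8 KO stromal cells were 11 of 11 T cell, 8 of 8 B cell, 12 of 12 macrophage and 5 of 7 dendritic markers, against 9, 7, 12 and 2 in Bbs8 WT. Of the defining markers, Cd3e, Cd8a and Cd79a were at 0 in Bbs8 WT stromal cells and detected in Bbs8 KO. Pan-stromal UMIs were 86398 CPM in Bbs8 KO (84720 to 88898 by set) and 94406 in Bbs8 WT (89587 to 102995). In stromal cells without any immune UMI the log2 ratio was -1.54 for Penk and -0.97 for Clec3b, and per pan-stromal UMI it was -1.18 and -1.04.

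All cells were also split by their pan-stromal share into 6 bins. These bins hold the stromal cells on which the genes were chosen, so their values are a description and no support for the difference. In cells with 10% or more pan-stromal UMIs, which had the fewest immune UMIs, Penk was 374 CPM (283 to 485) in 291 Bbs8 KO cells and 754 (597 to 940) in 234 Bbs8 WT cells, and Clec3b was 853 (713 to 1013) and 1938 (1681 to 2224). Between 3% and 5%, Penk was 87.5 (59.4 to 124) and 541 (393 to 726). Intervals of the genotypes overlapped for Penk at 0% to 1%, where it was 12.7 (7.83 to 19.3) and 28.8 (12.5 to 56.8). They also overlapped for Penk at 5% to 7%, where it was 216 (158 to 289) and 413 (287 to 574). Stromal cells were split by depth as well. Under 200 UMIs, Clec3b was 344 (204 to 544) and 734 (379 to 1283), which overlapped. Penk was 191 (91.7 to 352) and 1408 (892 to 2112) there. At 400 or more UMIs, Penk was 291 (239 to 351) and 635 (521 to 767), so its gap varied with depth.

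**Figure D4:**
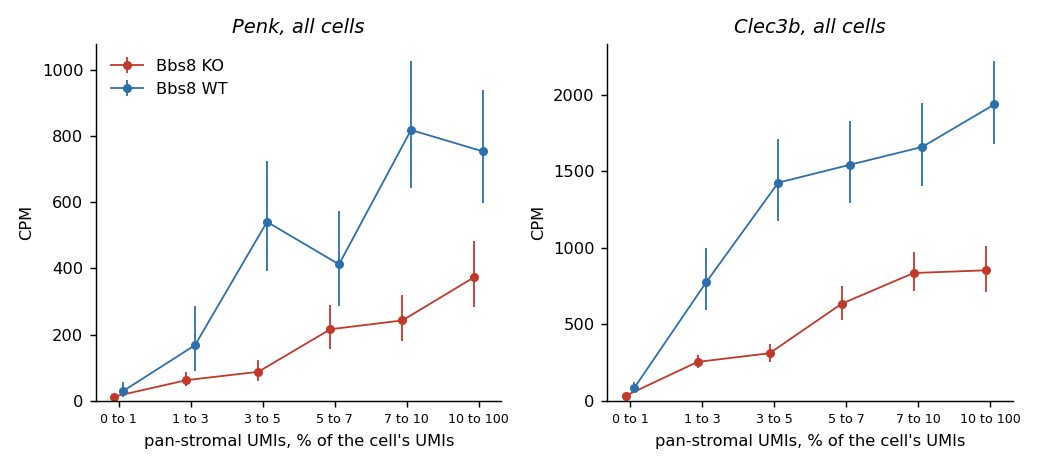
Level of Penk (left) and Clec3b (right) in CPM against the share of pan-stromal UMIs in the cell, for all cells of Bbs8 KO (red) and Bbs8 WT (blue), with 95% exact Poisson intervals. Both genes are lowest in the bin of 0% to 1%, and in the bin above 10% Penk is 374 and 754 and Clec3b 853 and 1938.

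Stromal cells that held Penk were deeper at the median than those that did not, which bears on detection of both genes in a cell. In Bbs8 KO, 30 stromal cells held both genes, and Clec3b was found in 29.1% (20.6 to 38.9) of Penk-positive and 21.0% (18.7 to 23.5) of Penk-negative cells, whose median depths were 569 and 286 UMIs. In Bbs8 WT, 55 cells held both, at 45.8% (36.7 to 55.2) and 41.2% (37.0 to 45.5), with depths of 374 and 307. After thinning the shares were 15.9% and 13.2% in Bbs8 KO and 31.1% and 27.3% in Bbs8 WT. The intervals of positive and negative cells overlapped in both mice before thinning, so a link between the genes within a cell was not detectable at this depth.

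The other genes of the enkephalin pathway lay on both sides of 0. Of a list of 20 genes of opioid peptides, their processing and their receptors, 12 had a row in the table and 8 besides Penk had at least 20 stromal UMIs. None of the 8 was at or below a log2 ratio of -1, against 2.37% of the 5989 genes with that many UMIs, and 2 were at or above 1, against 10.2% of those genes. Their median was 0.20 against 0.12 over the 5989 genes. In P2-like cells, where most Penk UMIs were found, 1 of 7 other measured members was at or below -1 and 1 at or above 1, against 4.06% and 9.03% of 4142 genes, with a median of -0.12 against 0.09. Groups of 7 or 8 genes are too small to be set apart from those shares. Cpe, the carboxypeptidase that trims the basic residues, was 56.5 CPM in Bbs8 KO and 28.6 in Bbs8 WT (log2 0.87, -0.16 to 2.31). Mme, neprilysin, which degrades enkephalins, was 101 and 121 (-0.26), and Ace, a peptidase that cleaves enkephalins among other peptides, 115 and 211 (-0.85, -1.41 to -0.34). In P2-like cells Ace was at 86.6 and 185 (-1.05, -1.87 to -0.34), the 1 member at or below -1 there. Anpep, the aminopeptidase that removes the first tyrosine of enkephalins, was 67.1 and 75.0 (-0.15). Ogfr, a receptor for Met-enkephalin at the nuclear envelope, was 113 and 50.01 (1.10), and Lnpep, an aminopeptidase, 74.1 and 21.4 (1.58) from 42 and 6 UMIs.

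Tetranectin binds plasminogen, and genes of plasminogen activation were taken as a second list. Of 12 listed genes, 9 had a row and 6 besides Clec3b had at least 20 stromal UMIs. Their median was 0.08 against 0.12 over all genes at that minimum, and none was at or beyond 1 in either direction, against the same 2.37% and 10.2%. Plat, tissue plasminogen activator, was 491 CPM in Bbs8 KO and 532 in Bbs8 WT (log2 -0.12). Anxa2 and S100a10, which together form a plasminogen receptor at the cell surface, went in different directions, with 872 and 700 for Anxa2 (0.31, 0.08 to 0.56) and 771 and 1107 for S100a10 (-0.52, -0.73 to -0.31). In P2-like cells S100a10 was 577 and 1043 (-0.85, -1.15 to -0.56).

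A list of 20 genes of interstitial and adventitial fibroblasts that were not used to call cells had 18 measured members in stromal cells, of which 0 were at or below -1, 5 below 0 and 2 at or above 1, again beside 2.37% and 10.2% of all genes with at least 20 UMIs, with a median of 0.37 against 0.12. Ly6c1, a surface antigen of the Ly6 family, was 870 CPM in Bbs8 KO and 329 in Bbs8 WT (log2 1.39), and Ly6a, which encodes SCA1, 1903 and 957 (0.99). Fbn1, the microfibril protein fibrillin, was 2690 and 1958 (0.46, 0.32 to 0.60). Dpt, which encodes the matrix protein dermatopontin, went the other way at 2620 and 3847 (-0.55, -0.67 to -0.44), as did Pcolce2, a collagen-binding protein that enhances procollagen processing, at 581 and 761 (-0.39, -0.64 to -0.13). In P1-like cells alone, where Clec3b was highest, 0 of the 17 measured members were at or below -1, against 7.75% of 1045 genes, and the median was 0.10 against -0.04. Dpt was 4217 and 6618 there (-0.65), the lowest of the 17. Of the 17, 5 were below 0.

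The genes most like each of the pair were ranked by Pearson's r of log2 levels (20 CPM added) over 17 class-by-genotype sums, among 8684 genes with at least 50 UMIs that were not used to call cells. The sums share libraries and differ in depth, so r is a description. For Penk they were Medag (0.89), Abca8a (0.89), Igfbp3 (0.89), Zim1 (0.88) and Spon2 (0.88), which stood at log2 ratios of -0.32, -0.73, 0.04, -1.85 and -0.89 in stromal cells. For Clec3b they were Dpt (0.96), Tppp3 (0.95), Islr (0.94), Mmp27 (0.94) and Aebp1 (0.93), at -0.55, -0.93, -0.13, -0.04 and -1.14. Penk and Clec3b correlated with each other at 0.77, rank 68 from the side of Penk and rank 199 from that of Clec3b. Igfbp3, an insulin-like growth factor carrier, shared the class pattern of Penk with almost the same stromal level in both mice, 286 CPM in Bbs8 KO and 279 in Bbs8 WT.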

How the data were processed

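SVF cells of iWAT were profiled with Seq-Well S3. The authors deposited 1 table of UMI counts per gene and cell. According to the methods and the submitters' processing notes, reads were demultiplexed with bcl2fastq 2.20 and aligned with STAR to mm10, and cells outside fixed limits of gene number and mitochondrial share were removed; the deposited cells had 101 to 994 genes. Depth differences were reduced by downsampling, and whether this preceded deposit was not stated; a common depth may have lowered detection of both genes. The strand setting of counting was not given in the sources used here. Doublets were neither called nor removed here.

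Counts were summed by class, genotype and set and divided by all UMIs of those cells. Cells with under 2.5% pan-stromal UMIs and at least 2 UMIs of a list leading all others were assigned to other classes (3913 Bbs8 KO and 664 Bbs8 WT cells stayed unassigned). The genes, lists and comparisons were chosen with earlier results of these data known, and calling limits were set after marker levels were seen, without regard to Penk and Clec3b. Named genes were the pair, list genes with at least 20 UMIs in stromal cells, and the 5 most alike. P-values were not computed. Levels of 5 or fewer UMIs and a floor of 3 UMIs per group limited statements on rare classes. Scaling alternatives used TMM (edgeR 4.0.16) and size factors (DESeq2 1.42.0) in R 4.3.3; other steps used Python 3.11.15, scipy 1.17.1 and pandas 2.3.3. Ratios and intervals were tested on simulated data.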

Additional observations from a re-analysis of the deposited data

Results flagged for a closer look

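Among 20 groups of 5 sets (each gene, stromal class and genotype), 2 held a set far from the others by Dixon's ratio, where chance gives about 1 in 20. Penk in Bbs8 WT P1-like cells was 309 CPM in WT4_p2, from 5 UMIs, and 0 in the other 4 sets. Clec3b in Bbs8 KO P1-like cells was 1181 CPM in KO6_p3, from 33 UMIs, below 1553 to 1659 in the others.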

How the results depend on the processing

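Over 10 results (each gene in all stromal cells and in 4 stromal classes), 262 values under alternatives were computed, of which 248 lay within the counting interval of the reported ratio and 258 were below 0. All values here are log2 ratios of Bbs8 KO over Bbs8 WT. In stromal cells Penk ran from -1.70 to -1.11 and Clec3b from -1.52 to -0.94 over 26 alternatives each. A pan-stromal minimum of 3% gave -1.67 for Penk and -1.48 for Clec3b, and a minimum of 8 pan-stromal UMIs, chosen after seeing the data, -1.70 and -1.52. Clec3b was -0.94 in cells thinned to 100 UMIs, -0.97 in cells without immune UMIs (added after seeing the data) and -1.37 at the Bbs8 WT subtype mix. Leaving out each barcode set in turn gave -1.53 to -1.16 for Penk and -1.23 to -1.09 for Clec3b. TMM scaling shifted all genes by 0.13 in stromal cells and by 0.90 in P1-like cells, where sets held few UMIs, and Clec3b in P1-like cells was then -0.12. Size factors shifted genes by at most 0.07. Clec3b in P3-like cells fell from 1.57 to 0.32 below 0 when cells were thinned to 100 UMIs, and the cause was not tested. In P2-like cells Penk was -1.71 by the mean over cells, and Clec3b -0.92 in cells thinned to 100 UMIs and -1.04 without immune UMIs. Penk in P3-like cells, reported at -0.26, ran from -1.27 in cells thinned to 100 UMIs to 0.36 in cells with at least 200 genes, was above 0 under 4 alternatives, and went from -0.998 without WT4_p2 to 0.25 without WT3_p3. Penk in P1-like cells had no value where 3 or fewer UMIs were left in a genotype, and all 5 Bbs8 WT UMIs came from WT4_p2. No paired analysis was possible because no test was made with 1 mouse per genotype. Depth limits the subtypes: Penk rested on 5 UMIs per genotype in P1-like cells and on 23 and 14 in P3-like cells.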
